A study of Rattus norvegicus with 9 samples.

Results

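The endothelial and blood-spinal cord barrier genes Cldn5, Ocln, Tjp1, Slc2a1, Abcb1a, Mfsd2a, Pecam1, Cdh5, Tek and Kdr were taken by gene symbol from a table of spinal cord transcripts. Values of 8 of these 10 genes were analysed, out of 32623 genes, and 7 of the 8 reached the expression minimum for testing. Abcb1a and Pecam1 were not analysed here, and Cldn5 had no counts. The list and its companion lists were chosen with earlier results of these data known.

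The samples were 9 poly(A) RNA libraries of spinal cord from female Wistar rats, 8 weeks old and 200 to 230 g. The 3 Sham libraries came from rats whose lamina was opened with the cord left uninjured. The 3 C_Spinal libraries came from rats with spinal cord injury given distilled water by mouth. The 3 T_Spinal libraries came from rats with spinal cord injury given 3 mL of MED (Modified Erxian Decoction, a herbal mixture) by gavage each day. No time after injury, level of injury or length of dissected cord is given in the sources used here, nor whether libraries of a group are separate animals, so the p-values speak of the scatter among these 9 libraries alone, part or all of which may be technical. Depth was 57.0 to 69.8 M counts per library (M, units of 1e+06). As a check of the tissue label, 6 oligodendrocyte genes summed to 26646 to 26854 FPKM (Sham), 7923 to 8001 (C_Spinal) and 9634 to 9798 (T_Spinal), with none at 0. FPKM is the deposited level per kilobase of transcript and M fragments.

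The blood-spinal cord barrier is the sealed wall of cord capillaries. Endothelial cells are joined by tight junctions, in which claudin 5 and occludin span the membrane and ZO-1 (Tjp1) anchors them to the cytoskeleton, and by adherens junctions built on VE-cadherin (Cdh5). Carriers supply the cord through this wall, among them the glucose transporter GLUT1 (Slc2a1) and the lipid transporter Mfsd2a, which also holds down transcytosis. The receptor tyrosine kinases Tek (TIE2) and Kdr (VEGFR2) receive angiopoietins and vascular endothelial growth factors. In bulk tissue, fewer endothelial cells and less RNA per cell cannot be told apart. Several of these genes are also used outside vessels, Tjp1 in astrocytes and epithelia and Slc2a1 in astrocytes and perineurium.

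RefSeq promoter windows (build GRCr8, 250 bases before to 50 after the start assigned to each gene) matched 6 of the 10 symbols. The windows shown are those of 4 of the 5 barrier genes called between the injured groups, Slc2a1 and Kdr (lower in T_Spinal) and Ocln and Tjp1 (higher). The other, Cdh5, had no matched window. They lie at chr5:138002272-138002571 (plus strand, Slc2a1), chr14:32571813-32572112 (plus strand, Kdr), chr2:33441149-33441448 (minus strand, Ocln) and chr1:128325311-128325610 (minus strand, Tjp1). Capitals mark matches on either strand to letters bound by factor families known in endothelium. The ETS family was searched as AGGAAG. The SOX family was searched as ACAAAG and also as the related string ACAATG. For TCF/LEF factors the string was CTTTGAT with its variant for the last base, CTTTGAA. The GATA family was searched as AGATAA, forkhead factors as TGTTTAC and the core of a HIF site as ACGTG. No pair of matches in these windows overlapped.
Slc2a1: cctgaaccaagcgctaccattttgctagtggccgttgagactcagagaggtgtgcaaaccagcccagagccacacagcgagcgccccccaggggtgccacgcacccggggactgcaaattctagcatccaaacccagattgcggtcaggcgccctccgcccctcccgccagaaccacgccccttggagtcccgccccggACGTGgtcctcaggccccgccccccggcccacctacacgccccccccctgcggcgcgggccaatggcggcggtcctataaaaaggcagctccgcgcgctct
Kdr: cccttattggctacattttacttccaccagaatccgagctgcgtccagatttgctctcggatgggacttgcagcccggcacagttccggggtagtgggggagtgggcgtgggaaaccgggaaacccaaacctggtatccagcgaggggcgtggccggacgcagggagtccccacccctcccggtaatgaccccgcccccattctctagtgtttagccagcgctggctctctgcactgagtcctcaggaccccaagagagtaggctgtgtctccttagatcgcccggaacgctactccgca
Ocln: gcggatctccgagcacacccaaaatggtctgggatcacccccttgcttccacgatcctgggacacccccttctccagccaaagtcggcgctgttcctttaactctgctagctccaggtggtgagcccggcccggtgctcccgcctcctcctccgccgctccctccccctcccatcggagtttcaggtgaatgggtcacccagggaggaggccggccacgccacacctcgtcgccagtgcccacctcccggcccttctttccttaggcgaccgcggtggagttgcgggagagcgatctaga
Tjp1: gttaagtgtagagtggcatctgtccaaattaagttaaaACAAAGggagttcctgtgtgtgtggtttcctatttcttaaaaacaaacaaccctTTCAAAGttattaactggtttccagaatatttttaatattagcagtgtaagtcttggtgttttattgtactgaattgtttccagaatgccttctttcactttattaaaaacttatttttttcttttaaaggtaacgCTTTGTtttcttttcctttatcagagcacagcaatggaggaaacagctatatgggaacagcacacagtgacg

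The Slc2a1 window held 1 match, ACGTG at -51 from the start. The Tjp1 window held 3, ACAAAG at -212 and, on the opposite strand, CTTTGAA at -158 and ACAAAG at -22. None of these letters occurred in the Kdr and Ocln windows. Of 33469 rat windows of the same length, 19.3% held the HIF core, 29.1% a SOX match, 8.73% a TCF/LEF match, 34.5% the ETS letters, 11.6% the GATA letters and 3.78% the forkhead letters. The windows differed in base composition, with 68.3% G and C in Slc2a1, 65.3% in Ocln, 61.0% in Kdr and 33.7% in Tjp1, against a median of 51.7%. The Tjp1 window lies inside the gene's RefSeq span and not at its outer end, so its positions are counted from an inner start. A match is a string of letters and not a measured binding site.

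The barrier genes did not move as a block after injury. In C_Spinal against Sham, 3 of 7 tested genes were higher (Cdh5, Tek, Ocln), 3 were lower (Mfsd2a, Slc2a1, Tjp1) and Kdr was not called, with edgeR at an adjusted p below 0.05. Over all 14791 tested genes 75.4% were called, 38.1% higher and 37.4% lower, so a call in this comparison is the common case. The sizes ranged from 5.17-fold higher for Cdh5 to 2.95-fold lower for Mfsd2a. The median log2 fold change of the 7 genes was -0.08, against 0.02 over all tested genes. In T_Spinal against C_Spinal, 2 were higher (Ocln, Tjp1), 3 were lower (Cdh5, Kdr, Slc2a1) and 2 were not called (Tek, Mfsd2a), where 38.6% of all tested genes were called, 20.7% higher and 17.9% lower. The median of the 7 was -0.10, against 0.00. In T_Spinal against Sham, Cdh5, Ocln and Tek were higher, Mfsd2a, Kdr and Slc2a1 lower and Tjp1 not called, where 71.5% of genes were called, 35.0% higher and 36.6% lower. Of all calls there, 48.9% were higher with TMM scaling and 59.6% with total counts alone. The FPKM of the compared groups did not overlap for 4 of the 7 genes in C_Spinal against Sham (79.5% of all tested genes), for 5 in T_Spinal against C_Spinal (52.0%) and for 7 in T_Spinal against Sham (75.7%). For Tjp1, FPKM in C_Spinal lay above Sham, opposite to its call as lower. The comparisons share libraries and are not independent of each other.

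**Figure D1:**
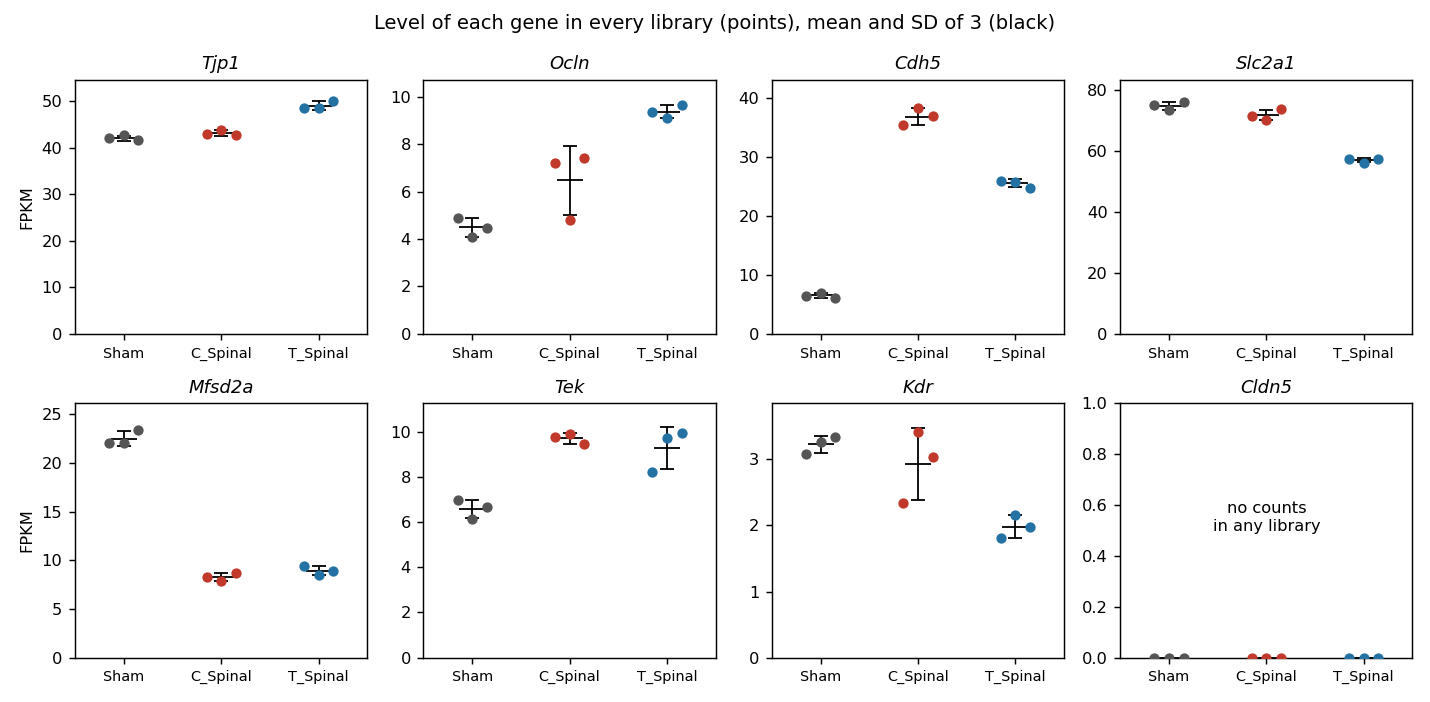
FPKM (vertical axes) of each gene in every library, with 1 point per library and the mean and SD of 3 in black for Sham, C_Spinal and T_Spinal. Cdh5 sits at 6.17 to 7.01 in Sham and at 24.8 or more in all 6 injured libraries, Mfsd2a is highest in Sham, and Cldn5 has no counts.

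Levels per transcript length placed Slc2a1 first in all 3 groups, with a mean FPKM of 74.8 (Sham), 71.7 (C_Spinal) and 56.9 (T_Spinal), and Tjp1 next. In Sham, Mfsd2a came after them, Tek and Cdh5 followed with overlapping libraries (6.15 to 6.97 and 6.17 to 7.01 FPKM), and Ocln and Kdr were lowest. In C_Spinal, the order below Tjp1 was Cdh5, Tek, Mfsd2a, Ocln and Kdr, with Mfsd2a at 7.85 to 8.67 and Ocln at 4.79 to 7.41 FPKM not overlapping. In T_Spinal, Cdh5 came after Tjp1, and Ocln (9.12 to 9.65), Tek (8.23 to 9.93) and Mfsd2a (8.53 to 9.39) overlapped in FPKM, with Kdr lowest.

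Cdh5 rose most of the 7 tested barrier genes after injury. VE-cadherin holds neighbouring endothelial cells together at adherens junctions (ENSRNOG00000013324, chromosome 19, 1023683 to 1074365, minus strand, in the table's coordinates, whose build is not given in the sources used here). It was measured at 6.46, 7.01 and 6.17 FPKM in the Sham libraries, at 35.4, 38.3 and 36.9 in the C_Spinal libraries and at 26.0, 25.8 and 24.8 in the T_Spinal libraries. The 3 groups did not overlap, with every C_Spinal library above every T_Spinal library and every T_Spinal library above Sham. The log2 fold change was 2.37 (SE 0.0540, adjusted p = 5.92e-11) in C_Spinal against Sham, -0.57 (SE 0.0510, adjusted p = 2.01e-05) in T_Spinal against C_Spinal and 1.80 (SE 0.0532, adjusted p = 4.96e-10) in T_Spinal against Sham. Cdh5 was thus 5.17-fold above Sham with water and 3.49-fold above Sham with MED.

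Occludin is a membrane protein of tight junctions (Ocln, ENSRNOG00000018297, chromosome 2, 30527715 to 30577218, minus strand). It was measured at 4.91, 4.09 and 4.48 FPKM in the Sham libraries, at 7.21, 4.79 and 7.41 in the C_Spinal libraries and at 9.35, 9.12 and 9.65 in the T_Spinal libraries. All T_Spinal libraries were above all others, while C_Spinal replicate 2 lay within the Sham range. The log2 fold change was 0.90 (SE 0.147, adjusted p = 0.000277) in T_Spinal against Sham. It was 0.50 (SE 0.146, adjusted p = 0.0226) in T_Spinal against C_Spinal, and this call ended without T_Spinal replicate 1 (0.50, adjusted p = 0.0532) or T_Spinal replicate 3 (0.48, adjusted p = 0.0602). In C_Spinal against Sham it was 0.41 (SE 0.146, adjusted p = 0.0282). That call ended without Sham replicate 2 (0.34, adjusted p = 0.0914), Sham replicate 3 (0.40, adjusted p = 0.0635), C_Spinal replicate 1 (0.32, adjusted p = 0.101) or C_Spinal replicate 3 (0.30, adjusted p = 0.109), and in a fit of only these groups (0.41, adjusted p = 0.0559).

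ZO-1 is the scaffold under tight junctions (Tjp1, ENSRNOG00000011077, chromosome 1, 126146489 to 126227469, minus strand). It was measured at 42.0, 42.7 and 41.6 FPKM in the Sham libraries, at 43.0, 43.9 and 42.8 in the C_Spinal libraries and at 48.5, 48.5 and 50.2 in the T_Spinal libraries. The T_Spinal libraries stood above the other 6, and in FPKM every C_Spinal library stood above every Sham library. The log2 fold change was 0.14 (SE 0.0268, adjusted p = 0.00205) in T_Spinal against C_Spinal, 10.6% higher. The direction after injury depends on how libraries are scaled: it was -0.08 (SE 0.0268, adjusted p = 0.0162) with TMM scaling and 0.04 (adjusted p = 0.212) with total counts alone, under which the median of all genes was 0.14. The call also ended without Sham replicate 2 (-0.07, adjusted p = 0.0636) or C_Spinal replicate 3 (-0.08, adjusted p = 0.0577). T_Spinal against Sham gave 0.06 (SE 0.0268, adjusted p = 0.0630) with TMM scaling and 0.22 (adjusted p = 3.76e-05) with total counts.

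Claudin 5 is the main claudin of barrier endothelium (Cldn5, ENSRNOG00000045811, chromosome 11, 86356294 to 86357718, minus strand). It was listed at 0 in all 9 libraries, which allows up to 3 counts each, or 0.0430 to 0.0526 counts per M, for counting error only. An exact 0 can be a failed estimate: 3759 of 21488 protein-coding genes had no count in any library. Its whole span lies inside Cdc45, a replication gene on the opposite strand (86329012 to 86358453). Mean FPKM of Cdc45 was 12.7 ± 0.705 (Sham), 19.5 ± 0.604 (C_Spinal) and 13.3 ± 0.754 (T_Spinal; SD, n = 3). Its 10 partners in the replicative helicase, Gins1 to Gins4 and Mcm2 to Mcm7, looked up after their values were seen, had group means of 1.12 to 7.30 FPKM (Sham), 1.81 to 12.7 (C_Spinal) and 1.74 to 13.6 (T_Spinal). In C_Spinal against Sham, Cdc45 had 0.50 on the log2 scale (SE 0.0527, adjusted p = 9.23e-06). There Gins1, Gins4 and Mcm2 to Mcm7 also rose, by 0.42 (Mcm4) to 1.80 (Mcm3), Gins2 had -0.36 and Gins3 was not called. In T_Spinal against C_Spinal, Cdc45 had -0.59 (SE 0.0527, adjusted p = 1.89e-05), where Mcm4 had 0.28 (adjusted p = 0.0139) and the other 9 partners were not called. Whether reads of Cldn5 were counted for Cdc45 was not tested, and the strand setting of the counting is not given in the sources used here. No statement on Cldn5 follows from these counts.

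Mfsd2a fell most of the 7 genes after injury. It transports lysophosphatidylcholine with docosahexaenoic acid into the nervous system and restrains vesicle traffic across endothelium (ENSRNOG00000014008, chromosome 5, 140642885 to 140657745, minus strand). It was measured at 22.0, 22.0 and 23.4 FPKM in the Sham libraries, at 8.30, 7.85 and 8.67 in the C_Spinal libraries and at 9.39, 8.53 and 8.92 in the T_Spinal libraries. Sham stood apart from both injured groups, which overlapped each other. The log2 fold change was -1.56 (SE 0.0640, adjusted p = 4.47e-09) in C_Spinal against Sham and -1.49 (SE 0.0638, adjusted p = 8.26e-09) in T_Spinal against Sham. T_Spinal against C_Spinal gave 0.08 (SE 0.0630, adjusted p = 0.379).

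Slc2a1, the GLUT1 glucose carrier (ENSRNOG00000007284, chromosome 5, 138154673 to 138182897, plus strand), was measured at 75.1, 73.4 and 76.0 FPKM in the Sham libraries, at 71.5, 70.1 and 73.6 in the C_Spinal libraries and at 57.4, 56.2 and 57.2 in the T_Spinal libraries. The T_Spinal libraries were below all others, and on this scale Sham and C_Spinal overlapped. On the log2 scale the change was -0.37 (SE 0.0294, adjusted p = 8.65e-06) in T_Spinal against C_Spinal, a 1.29-fold lower level, and -0.55 (SE 0.0294, adjusted p = 4.45e-08) in T_Spinal against Sham. C_Spinal against Sham gave -0.18 (SE 0.0293, adjusted p = 0.000225), and the call ended with total counts in place of TMM (-0.06, adjusted p = 0.0888). Red blood cells carry GLUT1 in some mammals, and whether those of these rats do was not tested. The 6 measured of 7 red cell genes summed to 1359 to 1431 FPKM (Sham), 519 to 546 (C_Spinal) and 725 to 764 (T_Spinal), with none at 0 in all libraries. The red cell sum was thus higher in T_Spinal than in C_Spinal, where Slc2a1 was lower, and its part in the Slc2a1 values was not tested.

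Tek, the angiopoietin receptor TIE2 (ENSRNOG00000008587, chromosome 5, 113725717 to 113852799, plus strand), was measured at 6.97, 6.15 and 6.66 FPKM in the Sham libraries, at 9.78, 9.92 and 9.45 in the C_Spinal libraries and at 8.23, 9.72 and 9.93 in the T_Spinal libraries. All injured libraries were above all Sham libraries, and the injured groups overlapped. Its log2 fold change was 0.44 (SE 0.0778, adjusted p = 0.000468) in C_Spinal against Sham, 0.34 (SE 0.0778, adjusted p = 0.00285) in T_Spinal against Sham and -0.10 (SE 0.0775, adjusted p = 0.339) in T_Spinal against C_Spinal. A pseudogene inside Tek on the opposite strand had a mean of 0.0013 FPKM.

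Kdr, the main signalling receptor for VEGF-A (ENSRNOG00000046829, chromosome 14, 34727623 to 34787183, plus strand), had the lowest measured level. It was measured at 3.08, 3.27 and 3.33 FPKM in the Sham libraries, at 2.35, 3.42 and 3.03 in the C_Spinal libraries and at 1.81, 2.15 and 1.98 in the T_Spinal libraries. All T_Spinal libraries were below all others, while the C_Spinal libraries spread across the Sham range. Its log2 fold change was -0.60 (SE 0.128, adjusted p = 0.00436) in T_Spinal against C_Spinal and -0.86 (SE 0.128, adjusted p = 0.000140) in T_Spinal against Sham. In C_Spinal against Sham it was -0.26 (SE 0.127, adjusted p = 0.0879), and it passed without C_Spinal replicate 2 (-0.38, adjusted p = 0.0191) and with DESeq2 (-0.26, adjusted p = 0.0462). Tek and Kdr therefore had opposite signs against Sham in T_Spinal.

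**Figure D2:**
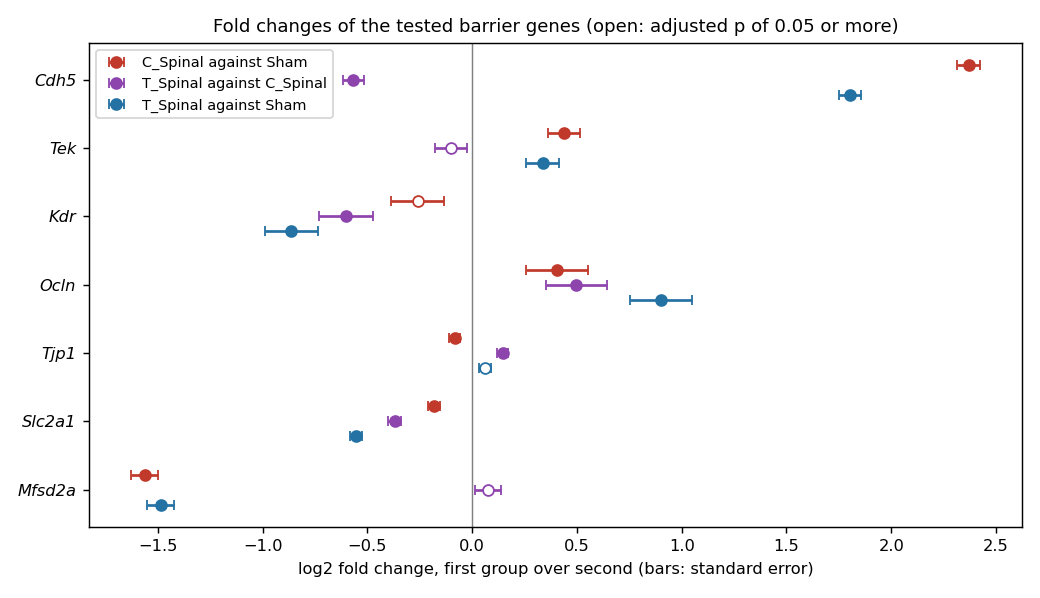
Log2 fold change (horizontal axis) of the 7 tested genes in the 3 comparisons, with bars for the standard error and open circles where the adjusted p was 0.05 or more. Cdh5 at 2.37 and Mfsd2a at -1.56 bound the injury comparison, and the T_Spinal against C_Spinal values lie between -0.60 and 0.50.

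The ligands and partner receptors of Kdr and Tek were followed in the same fit. Vegfa, the main Kdr ligand, was measured at 22.5, 25.1 and 17.0 FPKM in the Sham libraries, at 10.7, 9.52 and 11.3 in the C_Spinal libraries and at 12.7, 10.5 and 11.3 in the T_Spinal libraries. It fell in both injured groups against Sham, by 1.16 (SE 0.135, adjusted p = 2.00e-05) and 1.07 (SE 0.135, adjusted p = 4.13e-05) on the log2 scale, and T_Spinal against C_Spinal gave 0.09 (SE 0.134, adjusted p = 0.641). Pgf, a ligand of the VEGF receptor Flt1, went the other way after injury, from 7.43 ± 0.359 FPKM in Sham to 16.4 ± 0.389 in C_Spinal, and was at 6.45 ± 0.487 in T_Spinal (SD, n = 3). Its log2 fold changes were 1.02 (SE 0.0801, adjusted p = 8.32e-07), -1.38 (SE 0.0808, adjusted p = 1.27e-06) and, in T_Spinal against Sham, -0.36 (SE 0.0801, adjusted p = 0.00214). Vegfc, a ligand best known for lymphatic vessels, rose by 1.53 (adjusted p = 3.49e-05) after injury and was lower by -0.75 (adjusted p = 0.0102) in T_Spinal against C_Spinal. Flt1 fell by 0.44 (adjusted p = 0.000104) after injury and had 0.11 (adjusted p = 0.196) in T_Spinal against C_Spinal.

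On the angiopoietin side, Angpt2, the ligand that can oppose TIE2 signalling in vessels, was measured at 1.60, 1.93 and 1.76 FPKM in the Sham libraries, at 6.94, 7.38 and 7.91 in the C_Spinal libraries and at 4.17, 4.85 and 4.97 in the T_Spinal libraries. The 3 groups did not overlap. Its log2 fold change was 1.95 (SE 0.111, adjusted p = 6.43e-08) after injury and -0.71 (SE 0.107, adjusted p = 0.000630) in T_Spinal against C_Spinal. Angpt1, the activating ligand, rose by 0.99 (SE 0.0944, adjusted p = 3.85e-06) after injury and had -0.26 (SE 0.0930, adjusted p = 0.0511) in T_Spinal against C_Spinal. Tie1, the co-receptor of TIE2, rose by 1.13 (adjusted p = 3.59e-08), with -0.09 (adjusted p = 0.239) between injured groups. Ptprb, the phosphatase VE-PTP that acts on TIE2 and VE-cadherin, had a mean FPKM of 5.52 ± 0.303 (Sham), 5.05 ± 0.413 (C_Spinal) and 4.53 ± 0.0864 (T_Spinal; SD, n = 3). It had log2 fold changes of -0.25 (adjusted p = 0.00748) after injury and -0.19 (adjusted p = 0.0491) in T_Spinal against C_Spinal. Across the 22 tested genes of VEGF, angiopoietin and Notch signalling, 15 were higher and 6 lower after injury (median 0.92), and 2 were higher and 9 lower in T_Spinal against C_Spinal (median 0.03). Nrp1, a VEGF co-receptor, rose by 2.18 and Efnb2, an arterial ephrin, by 1.45 after injury, and Efnb2 and the Notch ligand Jag1 were lower by -1.01 and -0.94 in T_Spinal against C_Spinal.

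**Figure D3:**
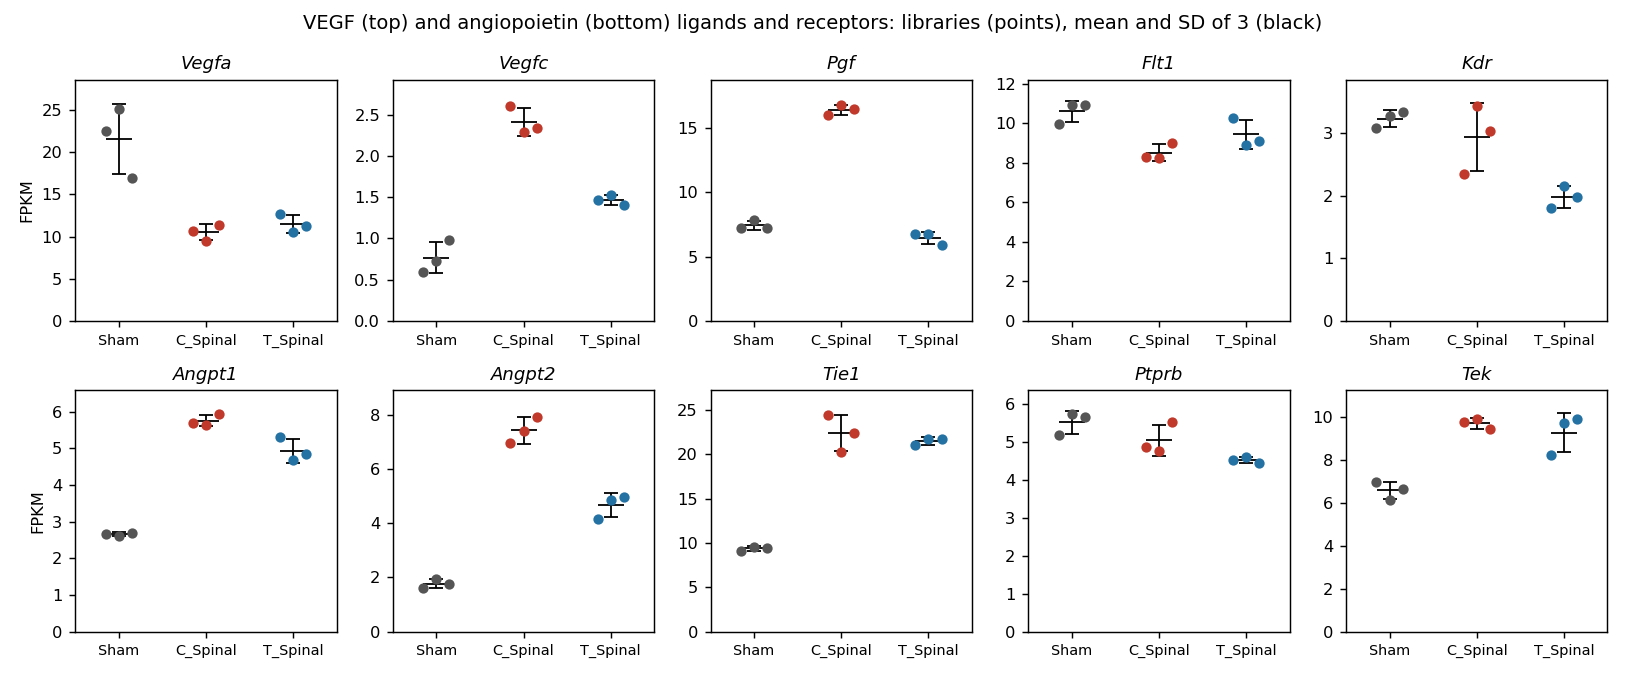
FPKM (vertical axes) of VEGF ligands and receptors in the top row and angiopoietin ligands, receptors and the phosphatase Ptprb in the bottom row, with 1 point per library and the mean and SD of 3 in black. Vegfa is lower and Angpt1, Angpt2 and Tie1 are higher in all 6 injured libraries than in Sham, and Pgf is high in C_Spinal alone.

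A list of 20 other endothelial genes gave the setting in which these values sit. After injury 18 were higher and none lower (median log2 fold change 0.92), and in T_Spinal against C_Spinal 2 were higher and 13 lower (median -0.35). Against Sham, T_Spinal had 11 higher and 1 lower (median 0.31). Their summed level was 113 to 118 FPKM (Sham), 281 to 286 (C_Spinal) and 276 to 277 (T_Spinal), with no gene at 0 in every library. Vwf, the clotting factor stored in endothelium, rose by 1.30 (adjusted p = 2.05e-09) and was lower by -0.98 (adjusted p = 3.97e-07) in T_Spinal against C_Spinal, with Esam, an endothelial adhesion protein, at -0.56. Cd34, which fibroblasts and progenitors also carry, rose by 2.98 after injury and by a further 0.80 (adjusted p = 2.55e-07) in T_Spinal. Its mean was 44.1 FPKM in C_Spinal and 78.8 in T_Spinal, so the similar sums of the injured groups hold this rise beside 13 lower genes. Eng, a TGF-beta co-receptor also found on macrophages, rose by 1.56. Macrophage and platelet genes, all 11 measured, summed to 94.4 to 101.2 FPKM (Sham), 2773 to 2833 (C_Spinal) and 2428 to 2463 (T_Spinal). Lysozyme (Lyz2) and Cd68 made up most of the sum: Lyz2 had a mean FPKM of 1832 (C_Spinal) and 1471 (T_Spinal), and Cd68 had 625 and 509. Of the 9 tested, 4 were higher in T_Spinal than in C_Spinal (Csf1r, Itgam, Ptprc and Adgre1) and 2 were lower (Lyz2 and Pf4), and the part of these cells in the endothelial values was not tested.

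Each gene was also set against the mean of those 20 genes in its own library, as a difference of log2(FPKM + 0.1). That mean rose by 1.02 in C_Spinal against Sham and was lower by -0.24 in T_Spinal against C_Spinal, so a gene with a steady level changes by the opposite amount on this measure. Over all tested genes the median difference was -0.89 and 0.27 in these comparisons, and the groups did not overlap for 87.7% and 58.2% of genes. Mfsd2a went from 2.21 ± 0.0505 in Sham to -0.25 ± 0.168 in C_Spinal (SD, n = 3), a change of -2.46. Kdr changed by -1.17, Ocln by -0.53, Tek by -0.47 and Cdh5 by 1.45. Slc2a1 (-1.08) and Tjp1 (-0.99) were close to the negative of the rise in the mean itself. The C_Spinal and Sham libraries of all 7 genes did not overlap, as for 87.7% of all genes, and the exact two-sided permutation test gave p = 0.1, the smallest that 3 libraries against 3 allow. In T_Spinal against C_Spinal, Ocln was higher by 0.79, Tjp1 by 0.42 and Mfsd2a by 0.35 and Cdh5 was lower by -0.29, all 4 without overlap (exact permutation p = 0.1 each), against a median of 0.27 over all genes. Slc2a1 (-0.10), Tek (0.17) and Kdr (-0.30) overlapped (exact permutation p = 0.3 each). Robo4, an endothelial guidance receptor among the 20 that is singled out after its values were seen, had no count in C_Spinal replicate 3 and 199 to 325 counts in the other 8 libraries. It lowers the endothelial mean of that library, 3.19 against 3.40 and 3.35 in the other C_Spinal libraries. Without Robo4 the mean changed by 1.13 and -0.32, Mfsd2a by -2.56 and 0.43 and Cdh5 by 1.34 and -0.21, and the same genes overlapped or not. Over all tested genes the median difference without Robo4 was -0.99 and 0.35, and the groups did not overlap for 89.7% and 71.4% of genes.

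**Figure D4:**
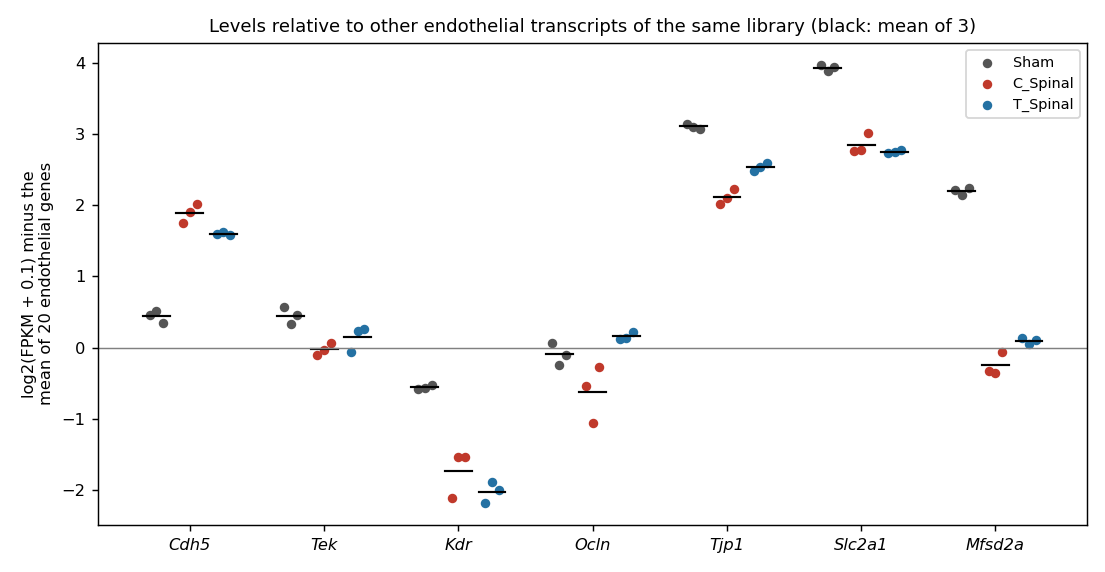
Level of each gene relative to the mean of 20 endothelial genes in the same library, in log2 units (vertical axis), with 1 point per library and black lines for the mean of 3. Mfsd2a drops from 2.21 in Sham to -0.25 in C_Spinal, and Cdh5 moves up from Sham to C_Spinal.

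Of 15 other junction genes tested, 7 were higher and 5 lower after injury (median 0.16), and 4 were higher and 5 lower in T_Spinal against C_Spinal (median -0.03). Over all tested genes 38.1% were higher and 37.4% lower after injury. Cldn1, a claudin of epithelia and perineurium, rose from 0.843 ± 0.0637 FPKM to 5.90 ± 0.142 and was at 1.60 ± 0.123 in T_Spinal (SD, n = 3), with log2 fold changes of 2.68 (adjusted p = 4.10e-09) and -1.92 (adjusted p = 8.16e-07). The catenins Ctnnb1 and Ctnna1, which link cadherins to actin, rose by 0.87 and 0.74 after injury. Cgnl1, a junction protein that binds ZO-1, had -0.44 (adjusted p = 2.00e-05) in T_Spinal against C_Spinal. Genes of perineurial and meningeal cells, of which 9 of 10 measured were tested, gave 8 higher and 1 lower after injury (median 2.27) and 1 higher and 8 lower between injured groups (median -0.72). They summed to 2025 to 2061 FPKM (Sham), 4906 to 5008 (C_Spinal) and 3059 to 3204 (T_Spinal), with none at 0 in all libraries, and their part in the junction values was not tested.

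Among other barrier carriers and receptors, 12 were higher and 10 lower of 23 tested after injury (median 0.14), and 5 were higher and 7 lower in T_Spinal against C_Spinal (median 0.05). Slco1c1, a thyroxine carrier of barrier endothelium and astrocytes, fell by 0.93 (adjusted p = 7.28e-09) after injury. Slc3a2, the heavy chain of amino acid exchangers, rose by 0.86 and the organic anion carrier Slco2b1 by 1.05. Abcg2, a drug efflux pump of barrier endothelium, had -0.84 (SE 0.0753, adjusted p = 2.01e-05) in T_Spinal against C_Spinal, where Slco2b1 had 0.90 and the taurine carrier Slc6a6 had 0.79. Like Slco2b1, the macrophage genes Csf1r (1.23 and 1.13) and Itgam (1.65 and 0.90) were higher in both comparisons. Of the 9 tested macrophage and platelet genes, 4 were higher and 2 lower in T_Spinal against C_Spinal. The part of macrophages in the Slco2b1 values was not tested.

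Genes of the Wnt and Norrin pathway, which induces and keeps the barrier, gave 11 higher and 5 lower of 17 after injury (median 0.53), and 3 higher and 6 lower in T_Spinal against C_Spinal (median -0.15). The ligand Wnt7a fell by 1.69 (adjusted p = 7.36e-09) and the feedback inhibitor Nkd1 by 1.30, while Reck, part of the Wnt7 receptor complex, rose by 1.44 (adjusted p = 3.64e-09). Between the injured groups, Wnt7a had 0.44 (adjusted p = 0.00106), Reck -0.67 (adjusted p = 1.23e-05) and the Norrin receptor Fzd4 -0.82 (adjusted p = 0.000190). Of 8 tested genes of leaky or activated endothelium, 7 were higher and none lower after injury (median 0.94), and 1 was higher and 6 lower in T_Spinal against C_Spinal (median -0.37). Icam1, which holds leukocytes, rose by 2.84 (adjusted p = 2.55e-10), and Cavin1, a coat protein of caveolae, rose by 2.11 (adjusted p = 3.87e-12) and had -0.72 (adjusted p = 1.74e-07) between injured groups. Cavin2, another caveolar coat protein, had -0.91 (adjusted p = 8.68e-06) there.

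All 9 tested basement membrane genes were higher after injury (median 1.68) and 8 of 9 were lower in T_Spinal against C_Spinal (median -0.56). Nid2, a linker of laminin and collagen IV, rose by 2.94 and had -0.99 between injured groups. Of 13 pericyte and mural genes, 8 were higher and none lower after injury (median 0.92), and none was higher and 6 were lower in T_Spinal against C_Spinal (median -0.31). Pdgfrb, the pericyte growth factor receptor that fibroblasts share, rose by 1.59, and Acta2, smooth muscle actin, had -1.10 between injured groups.

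The genes most like each barrier gene across the 9 libraries were found by the root mean square difference of centred log2(FPKM + 1), among 12975 candidates and with no test. Nearest were Tspan8 and Nbl1 for Cdh5 (0.0447 and 0.0503), Septin5 and Calm2 for Mfsd2a (0.0407 and 0.0434), and Gstm5 and Abhd1 for Slc2a1 (0.0420 and 0.0489). For Tjp1 they were Snrnp200 and Cacul1 (0.0220 and 0.0306), for Tek Ccdc12 and Samd11 (0.0412 and 0.0461), for Ocln Cblb and Cep128 (0.106 and 0.128) and for Kdr Iqck and Pde7b (0.0638 and 0.0900). Nbl1, for example, had a mean FPKM of 31.6 (Sham), 170.2 (C_Spinal) and 116.9 (T_Spinal). No barrier gene was among the 2 nearest of another.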

How the data were processed

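RNA-seq of spinal cord was analysed in 9 libraries, 3 each of Sham, C_Spinal and T_Spinal. Per the labels, the libraries were TruSeq stranded, made from poly(A) RNA and sequenced from both ends. The submitters' processing notes name HISAT and StringTie, while build, annotation and strand setting are not given there. The authors deposited raw counts per gene. The deposited FPKM lists a count of 0 at a constant, which was set to 0.

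A minimum of 1 on the FPKM averaged over all libraries left 14791 of 32623 genes, holding 99.7% of counts, for testing with edgeR 4.0.16 quasi-likelihood in R 4.3.3, TMM scaling, all libraries in 1 fit and no covariate. Calls are two-sided at a Benjamini-Hochberg adjusted p below 0.05, and the SE is the absolute log2 fold change over the root of the F statistic. Members and the 17 other lists were chosen with earlier results of these data known. Lists are vessel genes (pan-endothelial, junction, carrier, VEGF and angiopoietin, Wnt, leaky endothelium, pericyte, basement membrane) and markers of other cells (lymphatic, macrophage and platelet, red cell, astrocyte, ependymal, perineurial and meningeal, neuron, oligodendrocyte, Schwann). Named were all members, their ligands and partner receptors, and genes among the 3 smallest p of a list per comparison, of which 1 is not reported here. The fit was tested on simulated data. Alternatives were RLE and total-count scaling, DESeq2 1.42.0, limma 3.58.1 on log2(FPKM + 1) or log2(FPKM + 0.1), other minimums, fits of only the groups compared, a replicate block and omission of each library. Summed over the tested genes, replicates of a group differed by more than counting noise (chi-square per degree of freedom 20.8 to 30.9). A few genes with many counts can weigh on such a sum, so it does not give the spread of a typical gene.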

Additional observations from a re-analysis of the deposited data

How the results depend on the processing

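Under 18 alternatives the number of barrier genes called was 4 to 7 after injury, 4 to 5 in T_Spinal against C_Spinal and 5 to 7 in T_Spinal against Sham. Over all tested genes the same alternatives called 8318 to 12253, 4754 to 6236 and 7984 to 11410 genes in these comparisons. The number of genes tested differed where the minimum was changed. Cdh5, Tek and Mfsd2a after injury, and Cdh5, Tjp1, Slc2a1 and Kdr in T_Spinal against C_Spinal, kept their calls in all alternatives that tested them, with Cdh5 at 2.33 to 2.49 and at -0.60 to -0.51. Kdr was not tested with a minimum mean FPKM of 5. Tjp1 after injury turned from -0.08 to 0.0390 with total counts alone (adjusted p = 0.212), 0.0376 with limma on log2(FPKM + 1) (adjusted p = 0.266) and 0.0384 with limma on log2(FPKM + 0.1) (adjusted p = 0.261), none past the threshold, and was -0.07 (adjusted p = 0.0512) with all genes that had a count. Total counts and both limma scales use no TMM factor, and they moved the median of all genes to 0.12 to 0.14 from 0.02. The share of all calls that were higher was 50.5% after injury with TMM and 57.7% with total counts, 53.6% and 60.8% in T_Spinal against C_Spinal, and 48.9% and 59.6% in T_Spinal against Sham. Slc2a1 after injury had -0.06 with limma on either scale (adjusted p = 0.0941 and 0.0922). Tjp1 in T_Spinal against Sham was called with total counts, either limma scale (0.22 each), RLE or DESeq2 (0.08 each) and in a fit of only those groups (0.09).

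With a pseudocount of 1, the endothelial-relative differences shrank by more than the replicate SD for Tjp1 (-0.91) and Mfsd2a (-2.28) after injury and for Tjp1 (-0.49), Slc2a1 (-1.09), Mfsd2a (-1.94) and Kdr (-1.21) in T_Spinal against Sham. Without Robo4 in the endothelial mean, an alternative chosen after seeing the data, Tjp1 (-1.09), Slc2a1 (-1.19) and Tek (-0.58) after injury moved by more than that SD. The larger pseudocount shrinks differences of low values by construction. This includes low genes in the endothelial mean, such as Robo4 (1.25 FPKM in Sham) and Sox17 (2.41), so genes with high levels such as Tjp1 shift too. No difference whose groups did not overlap changed sign.

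Replicate numbers are shared across groups, but same-numbered libraries did not deviate together (r from -0.075 to 0.035), so they were not treated as pairs. With the replicate number as a block, 10966, 5235 and 10376 genes were called in the 3 comparisons in place of 11158, 5707 and 10580, and Kdr after injury passed the threshold (-0.27, adjusted p = 0.0317). Leaving out 1 library each gave 10738 to 11162, 4775 to 5749 and 10041 to 10538 genes called. For Cldn5 the limit of 3 counts per library holds only if its 0 is a count and not a failed estimate.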

Other observations

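Markers of other cells give the surroundings of the vessels. Astrocyte genes gave 2 higher and 3 lower of 8 after injury (median 0.01), with Gfap rising by 0.89 and the glutamate carrier Slc1a2 at -2.02, and 4 higher and 2 lower in T_Spinal against C_Spinal (median 0.11). Among these genes Aqp4 and Slc1a3 varied widely within groups. Aqp4 was at 72.4 to 414 FPKM in Sham and 74.0 to 383 in T_Spinal, and Slc1a3 at 15.7 to 41.0 in C_Spinal and 26.4 to 72.1 in T_Spinal. Oligodendrocyte genes were all lower after injury (6 of 6, median -1.89) and all higher in T_Spinal against C_Spinal (median 0.30), and neuron genes did the same (6 of 6, medians -3.66 and 0.67). All 4 Schwann cell genes were higher after injury (median 0.96) and lower in T_Spinal against C_Spinal (median -1.94). Macrophage and platelet genes were higher in 9 of 9 tested after injury (median 2.84), and 4 were higher and 2 lower in T_Spinal against C_Spinal (median 0.13). Red blood cell genes were lower in 4 of 4 after injury (median -1.52), with 3 of 4 higher in T_Spinal against C_Spinal (median 0.44). Values of single hemoglobin genes are uncertain because the copies share sequence. Ependymal genes were higher in 3 of 4 after injury (median 0.84) and lower in 2 of 4 between injured groups (median -0.36).

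Lymphatic endothelial genes were split, with 2 higher and 1 lower of 4 tested after injury (median 1.05) and 1 higher and 1 lower in T_Spinal against C_Spinal (median 0.05). Lyve1, which macrophages also carry, rose by 2.04 and Prox1, which neurons and glia also use, fell by 1.52 after injury and had 0.78 in T_Spinal against C_Spinal.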
